A study of Homo sapiens with 6 samples.

Results

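The 10 genes described here encode the NF-kB transcription factor subunits and the proteins that hold NF-kB signalling in check. They were chosen by symbol from the deposited count table, in which 10 of 10 had a row among 31413 genes. The subunits are NFKB1, NFKB2, REL, RELA and RELB, the inhibitors are NFKBIA, NFKBIB and NFKBIE, and TNIP1 and BIRC3 act on ubiquitin in the pathway. The RNA came from C42, a human prostate cancer line (also written C4-2, derived from LNCaP) grown in RPMI medium with serum. The cells carried a control shRNA (shCTR, 3 libraries, numbered 1, 2 and 4) or an shRNA against NSD2 (shNSD2, 3 libraries, numbered 1, 2 and 3). NSD2, also called WHSC1, is a methyltransferase that dimethylates lysine 36 of histone H3, and the series asks how it bears on immune infiltration in prostate cancer. The labels give 1 cell line and 1 name per shRNA, and do not say how the cells were transduced or whether cultures were grown separately for each library, so p-values cover only the variation among these libraries, possibly technical.

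NF-kB proteins are dimers of Rel-family subunits that wait in the cytoplasm, bound by IkB proteins. In the canonical branch, a kinase complex marks the IkB for destruction and dimers built mostly of RELA and the NFKB1 product enter the nucleus. In the noncanonical branch, the kinase encoded by MAP3K14 leads to processing of the NFKB2 precursor, whose product pairs with RELB. Several genes of the system, among them NFKBIA, NFKB2, RELB and BIRC3, are themselves known targets of NF-kB, which makes the pathway a feedback circuit.

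Levels are given as CPM, read counts relative to library size after TMM scaling, with the SD over 3 libraries. Library totals ran from 19412896 to 20665494 counts, and a floor of 3 counts was 0.145 to 0.156 CPM, which covers counting error only. NSD2 itself stood at 219, 223 and 200.1 CPM in shCTR 1, 2 and 4 and at 85.3, 86.4 and 89.7 CPM in the shNSD2 libraries, 40.7% of the control mean (log2 fold change -1.30, SE 0.087, edgeR adjusted p = 8.03e-05). An exact permutation test over both tails, which with 3 against 3 libraries cannot go below 0.1, gave p = 0.1. The label of a prostate line matched the markers: 10 of 10 luminal prostate markers were at 204.8 CPM or more in each library. The 10 leukocyte markers with a row summed to 6.07 to 7.92 CPM in shCTR and 6.47 to 9.08 CPM in shNSD2, with 0 to 2 of them at 0 in a library, and PTPRC, CD3D, CD3E and MS4A1 had no row. Fibroblast and endothelial markers (8 with a row) summed to 7.66 to 8.21 CPM in shCTR and 9.41 to 10.9 CPM in shNSD2, most of it VWF, with 1 to 4 of the 8 at 0 in a library, and DCN, COL1A2 and CDH5 had no row. Their part in the results below was not tested. The controls differed among themselves: over 11218 genes averaging 5 CPM or more, shCTR 4 had covered 0.49 of the distance between the other controls and the shNSD2 libraries. On the same measure, each control set against the other controls, shCTR 1 stood at -0.44, on the far side from the shNSD2 libraries, and shCTR 2 at 0.00.

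With less NSD2 transcript, 7 of the 10 genes rose, 1 fell and 2 were not called (edgeR quasi-likelihood test, adjusted p under 0.05 over 17160 genes). In the same test 30.7% of all genes were called, 15.5% higher and 15.2% lower. The genes that rose were NFKB2, RELA, RELB, NFKBIB, NFKBIE, TNIP1 and BIRC3, and NFKB1 fell. The log2 fold change of REL was -0.63 (adjusted p = 0.0549) and that of NFKBIA was -0.24 (adjusted p = 0.0530), both just outside the threshold. The median log2 fold change of the 10 was 0.40, against 0.01 over all genes tested. The CPM of the groups did not overlap for 9 of the 10, the exception being REL, and 46.8% of all genes tested had no overlap. All 10 passed the filter on low counts, and each had at least 24 counts in every library.

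The calls fall into a firm and a marginal set. NFKB2, TNIP1 and BIRC3 were called in 16 of 16 alternative fits, 6 of which left out a library, and RELB in 15 of 16. RELB missed the threshold without shNSD2 3 (log2 fold change 0.90, adjusted p = 0.0579). NFKB1, RELA, NFKBIB and NFKBIE had adjusted p-values between 0.0374 and 0.0491 with all libraries. These 4 were called without shCTR 4 and lost their calls without any other single library, that is without shCTR 1, shCTR 2, shNSD2 1, shNSD2 2 or shNSD2 3. Without shCTR 1, shCTR 2, shNSD2 1 or shNSD2 2, 4 of the 10 were higher, where 8.51%, 6.65%, 7.78% and 8.28% of all genes were (18.4%, 14.9%, 16.8% and 17.2% called in either direction), and 3 were higher without shNSD2 3, where 6.33% were (13.8% in either direction). Lower calls in these 5 edgeR fits numbered 0, against 9.89%, 8.28%, 9.07%, 8.89% and 7.49% of all genes, and 1 or 2 of the 10 had a negative log2 fold change at an unadjusted p under 0.05. With all libraries, the DESeq2 Wald test and limma-voom each called 1 lower, but not the same gene. The DESeq2 Wald test called NFKBIA (adjusted p = 0.0422) and not NFKB1 (adjusted p = 0.0674). By limma-voom NFKB1 was called (adjusted p = 0.0498) and NFKBIA was not (adjusted p = 0.0511). Without shCTR 4 all 10 were called, 7 higher and 3 lower, where 46.5% of all genes were called, 23.9% higher and 22.6% lower.

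The other 10 fits dropped no library but changed the scaling, filter, model or correction. In these, 4 to 7 of the genes were higher and 0 to 2 lower. The share of all genes called was 30.8% with DESeq2 size factors, 31.6% with upper-quartile factors, 31.0% with plain library size, 29% with the DESeq2 Wald test and 30.8% with limma-voom. It was 15.6% without the low-count filter (7.96% lower), 34.0% with the stricter filter, 30.6% with robust dispersion and 36.4% with a replicate block. The group difference in the block fit rested only on libraries whose replicate number occurs in both groups, so that fit did not draw on all libraries.

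Since members of this circuit are known to be bound by NF-kB at their own promoters, the 250 bases upstream of annotated starts were read for kappaB motifs. RefSeq windows (GRCh38.p14) were found for 8 of the 10 genes, all but RELB and NFKBIE, 14 windows in all. The kappaB decamer consensus was searched on both strands, and matches that overlapped were joined. It was in 8 of the 14 windows, against 9.95% of 34788 distinct windows of all genes. At least 1 window of 7 of the 8 genes held it, RELA being the exception. For that count per gene no share over all genes was computed. Matches stood in NFKB2, TNIP1, BIRC3 and NFKBIB, which rose, in NFKB1, which fell, and in REL and NFKBIA, which were not called. The stretches of 3 genes called in all 16 alternative fits and of NFKBIA are printed 5′ to 3′ on the gene's own strand, with motif matches on either strand in capitals. The NFKB2 and NFKBIA stretches are the whole 250 bases, and those of BIRC3 (236 bases) and TNIP1 (220 bases) were shortened at the end next to the start.
NFKB2 chr10:102395455-102395704 (+): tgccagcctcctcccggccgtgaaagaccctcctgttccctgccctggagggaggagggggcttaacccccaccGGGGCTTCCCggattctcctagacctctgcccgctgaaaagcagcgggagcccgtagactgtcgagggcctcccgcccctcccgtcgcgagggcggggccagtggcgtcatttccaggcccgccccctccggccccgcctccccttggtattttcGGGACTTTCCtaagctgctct
BIRC3 chr11:102317234-102317469 (+): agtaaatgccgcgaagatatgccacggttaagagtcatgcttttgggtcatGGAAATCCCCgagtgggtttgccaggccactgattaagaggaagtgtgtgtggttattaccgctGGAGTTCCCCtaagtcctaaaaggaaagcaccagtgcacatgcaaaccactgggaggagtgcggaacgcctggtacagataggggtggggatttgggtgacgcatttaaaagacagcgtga
TNIP1 chr5:151081065-151081284 (-): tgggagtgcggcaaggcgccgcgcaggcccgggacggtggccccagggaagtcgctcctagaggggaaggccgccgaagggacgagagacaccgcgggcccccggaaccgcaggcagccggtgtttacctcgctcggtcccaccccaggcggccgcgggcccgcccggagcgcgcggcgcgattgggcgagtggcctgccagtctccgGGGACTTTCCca
NFKBIA chr14:35404750-35404999 (-): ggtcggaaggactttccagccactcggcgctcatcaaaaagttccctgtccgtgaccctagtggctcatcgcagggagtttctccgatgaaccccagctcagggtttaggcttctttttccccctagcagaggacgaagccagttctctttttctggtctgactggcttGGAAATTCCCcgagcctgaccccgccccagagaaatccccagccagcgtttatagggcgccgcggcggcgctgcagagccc

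The NFKB2 stretch lies upstream of a start inside the gene, at 102395705, and holds GGGACTTTCC at 21 to 12 bases before the start and GGGGCTTCCC at 176 to 167. Another NFKB2 window, upstream of 102394578, held GGGAATTCCCC at 107 to 97 bases before that start and GGGGCTTTCC at 78 to 69. The window of the outermost NFKB2 start, 102394110, held 0 matches. TNIP1 carries the same GGGACTTTCC at 42 to 33 bases upstream of 151081034, a start inside the gene, and its window at 151065131 held 0 matches. NFKBIA has its match at 81 to 72 bases upstream of 35404749 and BIRC3 at 199 to 190 and 135 to 126 bases upstream of 102317484. In NFKB1 the match was GGGAATTTCC, at 49 to 40 bases upstream. A match describes letters in the window and not binding, which was not measured.

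**Figure D1:**
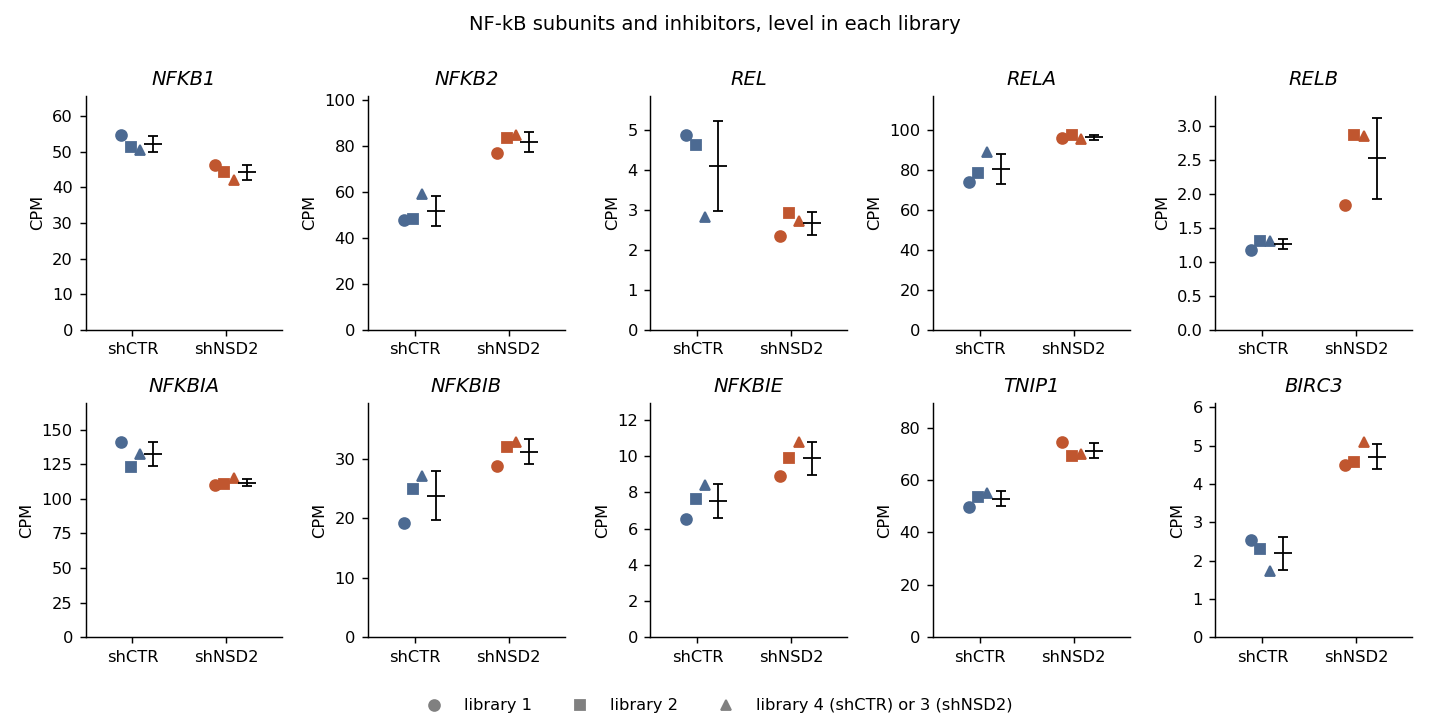
Level of each gene in CPM (y axis, from 0, scaled separately per gene) in the shCTR (blue) and shNSD2 (orange) libraries; symbols are single libraries and the bars beside them the mean and SD of 3. NFKB2, RELB, TNIP1 and BIRC3 stand clear of the controls in the 3 shNSD2 libraries, while for REL the triangle of shCTR 4 lies among the shNSD2 libraries.

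NFKB2, whose precursor is processed to the noncanonical subunit, showed the smallest p of the 10. It held 47.6, 48.4 and 59.1 CPM in shCTR 1, 2 and 4 and 76.9, 83.6 and 85.0 CPM in shNSD2 1, 2 and 3. The lowest shNSD2 library was above the highest control. The means were 51.7 ± 6.42 and 81.8 ± 4.33 CPM (SD, n = 3 each), a 1.58-fold rise (log2 fold change 0.66, SE 0.10, edgeR adjusted p = 0.00204). NFKB2 (ENSG00000077150) lies on the plus strand of GRCh38 chromosome 10 from 102394110 to 102402529.

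RELB, the partner of the NFKB2 product, was scarce in the controls and rose 2.002-fold. Its levels were 1.17, 1.30 and 1.30 CPM in shCTR and 1.84, 2.88 and 2.86 CPM in shNSD2, from 24, 27 and 25 counts against 36, 56 and 59. The groups did not overlap, and shNSD2 1 stood nearest to the controls. The log2 fold change was 1.001 (SE 0.24, edgeR adjusted p = 0.0120). RELB lies on chromosome 19 from 45001430 to 45038198.

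RELA encodes the main transactivating subunit of the canonical branch. It stood at 73.9, 78.8 and 88.9 CPM in shCTR and 96.2, 97.8 and 95.4 CPM in shNSD2. The shNSD2 libraries were tightly grouped above a spread set of controls. The rise was 1.198-fold (80.5 ± 7.67 to 96.5 ± 1.22 CPM, SD, n = 3; log2 fold change 0.26, SE 0.09, edgeR adjusted p = 0.0491). RELA lies on the minus strand of chromosome 11 from 65653596 to 65663094.

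NFKB1, the precursor gene of the canonical DNA-binding partner of RELA, went the other way. It held 54.9, 51.4 and 50.6 CPM in shCTR and 46.4, 44.5 and 42.04 CPM in shNSD2. All shNSD2 libraries were below all controls, but by a small margin. NFKB1 fell by 0.24 on the log2 scale (SE 0.08, edgeR adjusted p = 0.0480), from 52.3 ± 2.26 to 44.3 ± 2.16 CPM (SD, n = 3). It lies on chromosome 4 from 102501329 to 102617302.

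REL encodes c-Rel, a subunit best known from lymphocytes, and was low in these cells. Its levels were 4.89, 4.63 and 2.81 CPM in shCTR 1, 2 and 4 and 2.35, 2.93 and 2.72 CPM in shNSD2. The value of shCTR 4 lay inside the range of the shNSD2 libraries. With all libraries the log2 fold change was -0.63 (SE 0.22, edgeR adjusted p = 0.0549), and without shCTR 4 it was -0.84 (adjusted p = 0.00146). On the annotation, 5702 exon bases of REL (chromosome 2, 60881521 to 60931610) are shared with AC010733.2, a noncoding gene on the same strand with no row in the table, and how reads there were counted is not stated.

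Among the inhibitors, NFKBIA encodes IkB alpha, the IkB that canonical signals degrade and NF-kB then restores. It stood at 140.9, 123 and 132.5 CPM in shCTR and 109.8, 110.8 and 114.7 CPM in shNSD2. The groups did not overlap, yet the test with all libraries missed the threshold (log2 fold change -0.24, SE 0.09, edgeR adjusted p = 0.0530). It passed without shCTR 4 (-0.24, adjusted p = 0.0265) and after the correction for GC content and length (-0.35, adjusted p = 0.0125). NFKBIA lies on the minus strand of chromosome 14 from 35401511 to 35404749.

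NFKBIB, which encodes IkB beta, held 19.2, 24.9 and 27.2 CPM in shCTR and 28.9, 32.0 and 32.8 CPM in shNSD2. The top control was close to the lowest shNSD2 library. It rose 1.31-fold (log2 fold change 0.39, SE 0.13, edgeR adjusted p = 0.0374). The value was 0.25 without shCTR 1 (adjusted p = 0.104). NFKBIB lies on chromosome 19 from 38899700 to 38908893 and shares 40 exon bases with SIRT2 on the opposite strand.

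NFKBIE, which encodes IkB epsilon, held 6.50, 7.62 and 8.39 CPM in shCTR and 8.92, 9.91 and 10.8 CPM in shNSD2. The order of the libraries was as in NFKBIB, with shCTR 1 lowest and shNSD2 3 highest. NFKBIE rose 1.32-fold (log2 fold change 0.40, SE 0.14, edgeR adjusted p = 0.0488). It lies on the minus strand of chromosome 6 from 44258166 to 44265788.

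Of the ubiquitin regulators, BIRC3 encodes cIAP2, a ubiquitin ligase at TNF-family receptors and a widely used readout of NF-kB activity. It held 2.54, 2.31 and 1.72 CPM in shCTR and 4.49, 4.57 and 5.09 CPM in shNSD2, from 33 to 52 counts against 88 to 105. The lowest shNSD2 library exceeded the highest control by a wide gap, and shCTR 4 was the lowest of all 6 libraries. The rise was 2.14-fold (log2 fold change 1.10, SE 0.19, edgeR adjusted p = 0.00308), the largest fold among the 10. BIRC3 lies on chromosome 11 from 102317450 to 102339403.

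TNIP1 encodes ABIN1, which binds ubiquitin chains and restrains NF-kB together with A20. Its levels were 49.7, 53.6 and 55.2 CPM in shCTR and 74.4, 69.2 and 69.9 CPM in shNSD2. The groups were compact and well separated. TNIP1 rose 1.35-fold, from 52.8 ± 2.83 to 71.2 ± 2.83 CPM (SD, n = 3; log2 fold change 0.43, SE 0.08, edgeR adjusted p = 0.00496). It lies on the minus strand of chromosome 5 from 151029945 to 151093577.

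The genes that rose were mostly rich in GC, and the correction for GC content and exon length bore on them unequally. The longest annotated transcript had 65.4% GC for RELB, 62.4% for NFKB2, 61.0% for NFKBIE, 60.5% for NFKBIB, 59.2% for TNIP1 and 57.1% for RELA. It had 53.1% for NFKBIA, 50.1% for NFKB1 and 38.7% for REL. BIRC3, at 34.8% GC, was the exception among the genes that rose. After each library's smooth trend on GC and length was removed, NFKBIB stood at 0.19 (adjusted p = 0.201), NFKBIE at 0.19 (adjusted p = 0.256), RELA at 0.21 (adjusted p = 0.0857), NFKB1 at -0.18 (adjusted p = 0.0901) and REL at -0.33 (adjusted p = 0.220). NFKB2 (0.51), RELB (0.76), TNIP1 (0.36) and BIRC3 (1.33) were still called, so 4 genes were higher, and NFKBIA was the 1 lower gene, where 31.1% of all genes were called.

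**Figure D2:**
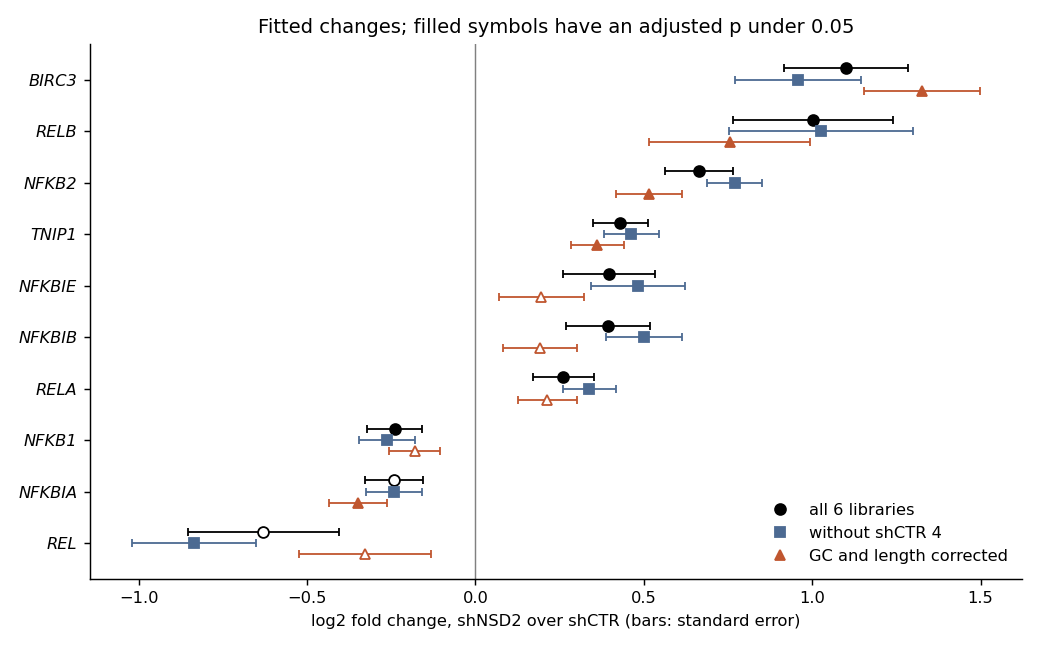
Fitted log2 fold change of each gene (x axis; positive means higher in shNSD2), with its standard error, from all 6 libraries (black circles), without shCTR 4 (blue squares) and after the GC and length correction (orange triangles). Filled symbols have an adjusted p under 0.05; all 10 squares are filled, whereas 5 triangles (NFKBIE, NFKBIB, RELA, NFKB1 and REL) are open.

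Levels of different genes were compared only per kilobase of merged annotated exons (RPKM from the same scaled counts), a length that can exceed that of the transcript expressed. NFKBIA was the most abundant of the 10 in both groups, at 55.7 ± 3.72 RPKM in shCTR and 47.1 ± 1.09 RPKM in shNSD2 (SD, n = 3). In shCTR it was followed by RELA (14.7), NFKB2 (11.5), NFKBIB (10.2), TNIP1 (9.12), NFKB1 (8.36) and NFKBIE (2.91 RPKM). RELB (0.415), REL (0.312) and BIRC3 (0.292 RPKM) were far lower. Neighbours from NFKB2 down to NFKB1 overlapped in their ranges over the control libraries, as did REL and BIRC3. In shNSD2 the order of NFKB2 (18.3) and RELA (17.7 RPKM) was exchanged with overlapping ranges, and BIRC3 (0.627) stood above REL (0.202 RPKM) without overlap.

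Within the family the shares of NFKB1 and NFKB2 among subunit transcripts differed between the groups. NFKB2 made up 31.5%, 31.5% and 34.5% of the summed subunit RPKM in shCTR 1, 2 and 4 and 39.9%, 41.6% and 42.8% in the shNSD2 libraries. NFKB1 made up 26.0%, 24.0% and 21.2% in shCTR and 17.3%, 15.9% and 15.2% in shNSD2. The share of RELA was 40.2% to 42.6% in shCTR and 39.4% to 41.0% in shNSD2, with overlapping ranges. The ratio of NFKB2 to NFKB1 was 1.21, 1.31 and 1.63 in shCTR and 2.31, 2.62 and 2.82 in shNSD2. These shares and ratios are descriptions of chosen genes and carry no test.

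The 3 IkB transcripts together came to 65.6 to 70.8 RPKM in shCTR and 62.2 to 66.6 RPKM in shNSD2, ranges that overlap. The 5 subunits together came to 33.7 to 38.2 RPKM in shCTR and 42.9 to 44.8 RPKM in shNSD2, with no overlap. The ratio of IkB to subunit transcript was 2.08, 1.92 and 1.85 in shCTR and 1.45, 1.43 and 1.505 in shNSD2. NFKB1 and NFKB2 count here only as subunits, although their unprocessed precursors can also hold NF-kB back. NFKB2 alone went from 11.5 RPKM in shCTR to 18.3 RPKM in shNSD2. The ratio is therefore not one of all inhibitor to all activator transcript. NFKBIA supplied 78.9% to 84.6% of the IkB transcript in shCTR and 72.5% to 74.5% in shNSD2, and NFKBIB 11.8% to 16.5% and 19.98% to 21.4%. All these values are of RNA, and protein, processing of the NFKB2 precursor and nuclear entry were not measured.

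**Figure D3:**
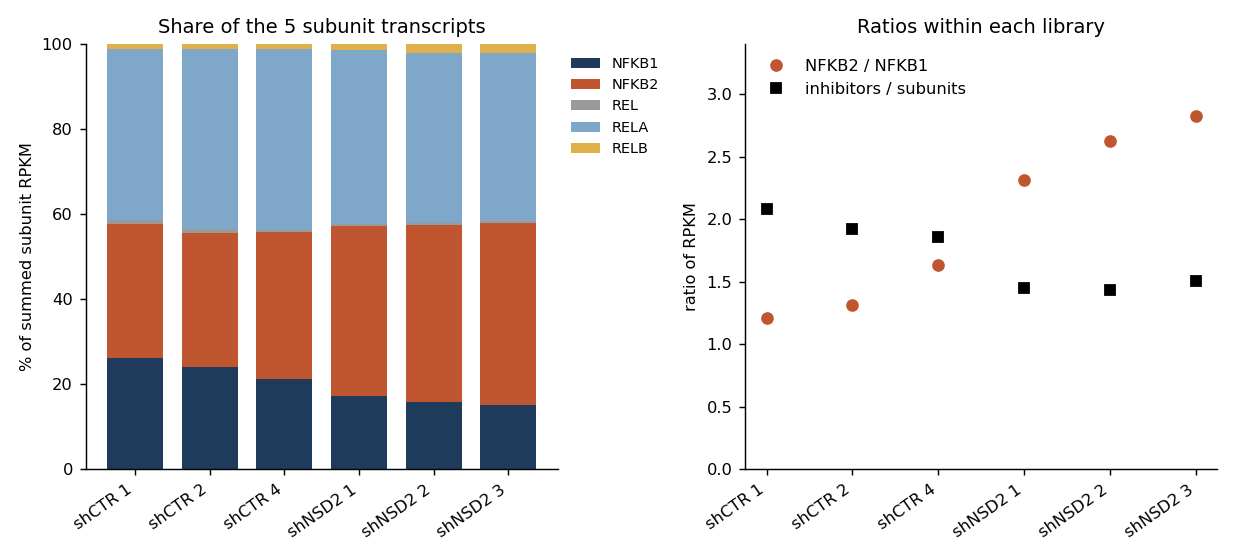
Left, share of each subunit gene in the summed RPKM of the 5 subunits (y axis, %) for each library. Right, ratio of NFKB2 to NFKB1 (circles) and of the 3 inhibitors to the 5 subunits (squares) in each library; NFKB2 to NFKB1 runs from 1.21 to 1.63 in shCTR and from 2.31 to 2.82 in shNSD2.

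The other genes of the pathway were taken from 4 lists by role (120 entries). Of 20 receptor genes 14 were tested, and 1 rose while 6 fell, with a median log2 fold change of -0.19. The share called was 50%, against 30.7% of all genes, of which 15.5% were higher and 15.2% lower. TNFRSF12A, the receptor of TWEAK and a known trigger of the noncanonical branch, rose from 10.7 ± 2.17 to 19.5 ± 2.29 CPM (SD, n = 3; log2 fold change 0.87, edgeR adjusted p = 0.00335). TNFRSF11A, which encodes RANK, another receptor of that branch, fell (log2 fold change -0.34, edgeR adjusted p = 0.0480). It was picked after the values were seen. The interleukin receptor subunits IL17RA (-0.68), IL17RB (-0.62) and IL1RAP (-0.89) and the death receptor gene TNFRSF10A (-0.42) fell. IL17RA went from 95.01, 84.0 and 63.1 CPM in shCTR 1, 2 and 4 to 51.6, 52.1 and 47.7 CPM in shNSD2, with shCTR 4 nearest to the shNSD2 libraries. The fall of TNFRSF10A kept its call in 1 of the 6 fits without a library, and 3 receptors were lower without shCTR 1, shNSD2 1 or shNSD2 3, where 9.89%, 9.07% and 7.49% of all genes were lower. The main TNF receptor gene TNFRSF1A (log2 fold change 0.01, adjusted p = 0.927) and the lymphotoxin receptor gene LTBR (0.13, adjusted p = 0.303), picked after the values were seen, were not called.

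Of 29 adaptors and kinases, all tested, 4 rose and 2 fell, and 23 were not called, with a median of 0.02. The called share of 20.7% was below the 30.7% of all genes. Of the linear ubiquitin ligase complex, RBCK1, which encodes HOIL-1, rose from 117 ± 16.3 CPM in shCTR to 205 ± 16.0 CPM in shNSD2 (SD, n = 3; log2 fold change 0.82, edgeR adjusted p = 0.00156) and SHARPIN rose by 0.46 (adjusted p = 0.00457). SHARPIN was at 0.19 after the GC and length correction (adjusted p = 0.0890). The catalytic subunit gene RNF31, picked after the values were seen, was at -0.30 (adjusted p = 0.0689).

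TRADD, the adaptor at TNF receptor 1, rose 1.62-fold (edgeR adjusted p = 0.00328). BCL10 and MALT1, partners in a complex that carries antigen-receptor signals, went opposite ways. BCL10 rose from 21.2 ± 2.28 to 29.7 ± 0.754 CPM, while MALT1 fell 1.92-fold from 394, 348 and 237 CPM in shCTR 1, 2 and 4 to 160.1, 172 and 179 CPM in shNSD2 (edgeR adjusted p = 0.00614 and 0.00324). IRAK1, a kinase of the Toll and interleukin receptor route, fell by 0.44 on the log2 scale (adjusted p = 0.0328), with shCTR 4 (235 CPM) below shNSD2 1 (242 CPM). Without shCTR 4, 7 of the 29 were lower, where 22.6% of all genes were. Without shCTR 1, shCTR 2, shNSD2 2 or shNSD2 3, 1 was lower, where 9.89%, 8.28%, 8.89% and 7.49% of all genes were. The IkB kinase genes CHUK (-0.26, adjusted p = 0.223), IKBKB (0.23, adjusted p = 0.0710) and IKBKG (0.09, adjusted p = 0.663) were not called, nor was MAP3K14 (0.14, adjusted p = 0.338), all 4 picked after the values were seen.

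Of 23 further listed genes, here called other brakes on NF-kB, 21 were tested, of which 5 rose and 3 fell, with a median of 0.04. The list is not of brakes alone. BTRC (0.17) and FBXW11 (-0.18), neither called, serve in the destruction of IkB. The IkB-like genes BCL3 and NFKBIZ can also act as partners of NF-kB. The share called was 38.1%, against 30.7% of all genes. COMMD1, which helps remove RELA from chromatin, rose 1.57-fold (SD, n = 3; controls 9.35 ± 1.72 CPM, shNSD2 libraries 14.7 ± 1.61 CPM; edgeR adjusted p = 0.00912). PDLIM2, a ubiquitin ligase of nuclear RELA, rose by 0.42, SIGIRR, an inhibitory interleukin receptor, by 0.37 and BCL3, a nuclear IkB-like cofactor, by 0.41 on the log2 scale (adjusted p = 0.0162, 0.0125 and 0.0269). SIGIRR and BCL3 lost their calls after the GC and length correction (0.11 and 0.14, adjusted p = 0.332 and 0.346). The deubiquitinase genes OTUD7B (-0.46) and OTULIN (-0.48) and the IkB-like gene NFKBIZ (-0.53) fell (adjusted p = 0.00593, 0.0171 and 0.0436). The A20 gene TNFAIP3, picked after the values were seen, was at 2.99 and 2.73 CPM and not called (log2 fold change -0.12, adjusted p = 0.695). Higher brakes numbered 0 without shNSD2 3 in the edgeR test, where 6.33% of all genes were higher (4 brakes at an unadjusted p under 0.05, and 5 with all libraries by either the DESeq2 Wald test or limma-voom). With shCTR 2 left out 1 was higher (6.65% of all genes), with shNSD2 1 left out 2 (7.78%), with shCTR 1 left out 3 (8.51%) and with shCTR 4 left out 6 (23.9%). Lower brakes numbered 1 without shCTR 2 or shNSD2 2 (8.28% and 8.89% of all genes lower) and 5 without shCTR 4 (22.6%).

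Of 48 listed NF-kB target genes outside the 10, 37 had a row and 21 were tested, so most chemokine and cytokine targets were below the filter or had no row. Of the 21, 6 rose and 1 fell, with a median of 0.23, and 17 had a positive log2 fold change. The median over all genes tested was 0.01, and their share of positive changes was not computed. The share called, 33.3%, was near the 30.7% of all genes. By direction, 15.5% of all genes were higher and 15.2% lower. Without shCTR 4, 9 were higher, where 23.9% of all genes were. SAT1, the polyamine-degrading acetyltransferase gene, rose from 75.7, 77.8 and 84.1 CPM to 147, 144 and 159 CPM (log2 fold change 0.92, edgeR adjusted p = 3.27e-04). GADD45B, a stress-response gene, rose 1.78-fold (SD, n = 3; controls 8.42 ± 1.59 CPM, shNSD2 libraries 14.9 ± 1.76 CPM; adjusted p = 0.00431). LCN2, which encodes lipocalin, rose from 0.486 ± 0.223 to 2.31 ± 0.408 CPM and the cytokine gene IL32 from 0.586 ± 0.264 to 3.07 ± 0.651 CPM (adjusted p = 0.00166 and 0.00106). Both had few counts in the controls, 5 to 13 for LCN2 and 8 to 17 for IL32. They passed the filter through the shNSD2 libraries, so their presence among the tested genes is tied to their rise. Both are nonetheless counted in the 6 that rose, in the 17 with a positive change and in the median. The caspase inhibitor gene CFLAR fell by 0.58 on the log2 scale (adjusted p = 0.00351) and by 0.25 after the GC and length correction (adjusted p = 0.0270). ICAM1 (log2 fold change -0.01, adjusted p = 0.929) and SOD2 (0.23, adjusted p = 0.101), common readouts of canonical activity that were picked after the values were seen, were not called.

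**Figure D4:**
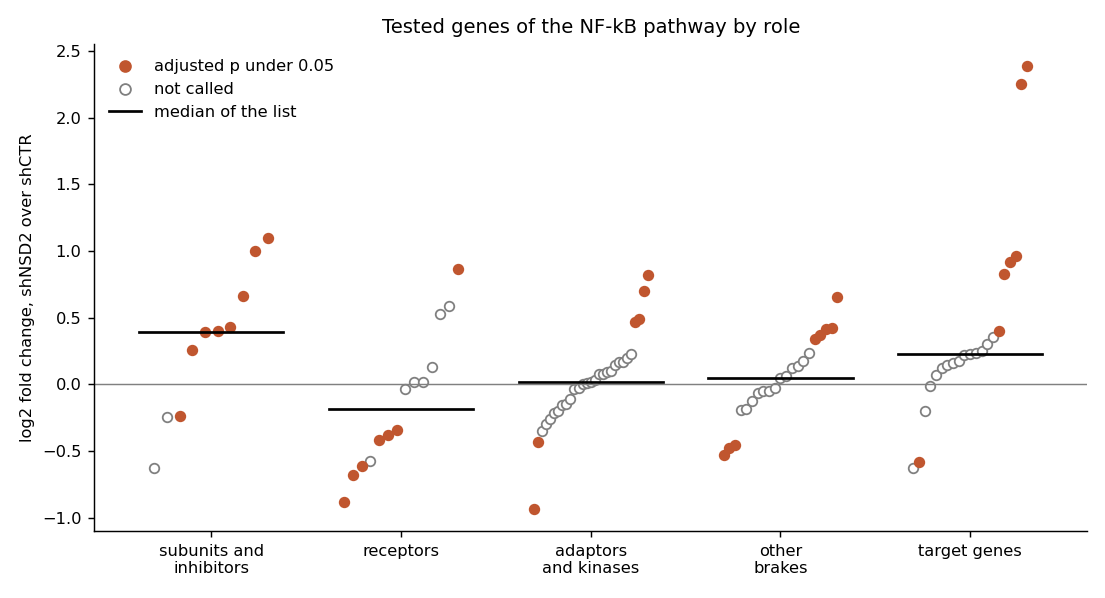
Log2 fold change (y axis; positive means higher in shNSD2) of the tested genes in 5 groups of the pathway, each sorted from low to high; filled points have an adjusted p under 0.05 and lines mark the group medians. The medians were 0.40 for subunits and inhibitors, -0.19 for receptors, 0.02 for adaptors and kinases, 0.04 for other brakes and 0.23 for target genes.

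The pattern of NFKB2 over the 6 libraries was shared by many genes. The 5 with the highest Pearson correlation of log2 CPM to NFKB2 among 11217 others were the pseudogene CU459211.1, NAPRT, FBXO46, MMAA and HOMER3 (r between 0.997 and 0.999 over 6 libraries that share the 2 groups). In all, 753 genes had r above 0.95, so this likeness does not single out a gene.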

How the data were processed

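RNA of 6 C42 libraries (3 shCTR, 3 shNSD2) was measured by sequencing. The labels' protocols name a Qiagen kit and a KAPA mRNA kit. The deposited table holds raw read counts per gene made by the authors, with no normalization, judged from whole numbers with different library totals. Per the submitters' processing notes, CASAVA 1.8.2, STAR 2.6.0a and GRCh38 were used. The counting program, annotation and strand setting were not given in the sources used here, so reads of overlapping or antisense genes cannot be told apart. The groups are those in the titles.

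The test was edgeR 4.0.16 (R 4.3.3): filterByExpr by group, TMM, glmQLFit and glmQLFTest, no covariate, Benjamini-Hochberg over the 17160 genes left of 31413, with a threshold of 0.05. Standard errors are the size of the log2 fold change over the root of F. GENCODE 29, which held 31313 of the identifiers, gave gene positions, exon lengths and GC content, and RefSeq the promoter windows. The correction for GC content and length used mgcv 1.9.3 smooths per library as offsets and left the 49 tested genes without a value uncorrected. Other alternatives were DESeq2 1.42.0, limma-voom (limma 3.58.1), other scalings and filters, robust dispersion, a replicate block and each library left out. No 2 libraries of a group agreed within sampling noise (chi-square per gene 3.69 to 37.2).

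Named genes were the 10 members, NSD2, up to 4 called genes of smallest p per list and direction, and the 5 genes most like the member of smallest p (log2 CPM with a prior count of 2). The members and lists were chosen with earlier results of these data known.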

Additional observations from a re-analysis of the deposited data

How the results depend on the processing

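With all 6 libraries 7 of the 10 genes were called higher and 1 lower, where 15.5% and 15.2% of all genes were. Fits with a library left out called 3 to 7 higher and 0 to 3 lower. The GC and length correction called 4 higher, where 16.9% of all genes were. Lower calls were 2 with DESeq2 size factors (15.7% of all genes) or a filter at 1 CPM in 3 libraries (17.1%). They were 0 with upper-quartile factors (14.1% of all genes) or without the low-count filter (7.96%). With either of the latter, NFKB1, REL and NFKBIA, 3 genes, were lower at an unadjusted edgeR p under 0.05. Over the 10 genes and the called genes named from the 4 lists, 33 in all, and 16 alternatives, 452 of 528 values kept their side of the threshold, 69 lost the call, 7 gained it and 0 changed sign. With a library left out, receptors had 1 higher and 3 to 6 lower calls, adaptors and kinases 4 higher and 1 to 7 lower, other brakes 0 to 6 higher and 1 to 5 lower, and target genes 5 to 9 higher and 1 lower, while the share of all genes called ran from 13.8% to 46.5% over the same fits. The correction for GC content and length gave 2 higher receptors, where 16.9% of all genes were higher. Lower target genes numbered 2 without the low-count filter, where 7.96% of all genes were lower. The cause of these shifts was not tested. The groups share only replicate numbers 1 and 2, and the labels state no pairing. Deviations of same-numbered libraries from their group means had correlations of 0.04 and -0.17. With 2 shared numbers and a control mean that includes shCTR 4, these values cannot tell whether the libraries were paired. With the replicate number as a block, shCTR 4 and shNSD2 3 each had a block of their own. They added nothing to the fitted group difference, which rested on the libraries numbered 1 and 2. In that fit 3 other brakes were higher, where 18.9% of all genes were. REL was at -0.85 and called (edgeR adjusted p = 0.00954), near its -0.84 without shCTR 4. NFKB1 and NFKBIE lost their calls, and 6243 genes were called in place of 5263. Depth limits RELB, BIRC3 and REL most, with 24 to 105 counts per library.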
